A study of Mus musculus with 3 samples.

Results

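The comparison set 1 droplet single-cell library of aortic CD45+ cells labelled HHcy directly against 1 labelled western diet (WD), with a control library read beside them. Per the labels, every animal was an ApoE-/- mouse on the C57BL/6J background. The mice labelled HHcy drank water with homocysteine at 1.8 g/L for 4 weeks, and those labelled WD ate a western diet for 4 weeks. The control mice are labelled only as such. Live nucleated cells carrying CD45, the surface protein of blood-derived cells, were sorted from digested whole aortas with their adventitia. The labels give neither the age or sex of the mice nor the number pooled in a library. A barcode was used when it held at least 200 genes and at most 10% mitochondrial UMIs (unique molecular identifiers, counts of captured molecules). This left 8155 of 9753 called barcodes in the library labelled HHcy and 6710 of 8557 in WD, together 14865 of the 20903 passing barcodes of the series. The B class held at least 1 UMI each of Cd79a and Ms4a1. The myeloid class held Csf1r and no Cd79a, and the T class at least 2 UMIs of Cd3d, Cd3e and Cd3g with neither Cd79a nor Csf1r. The neutrophil class held at least 10 UMIs of S100a8 with Csf3r or Cxcr2 and no Csf1r.

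Homocysteine is an amino acid formed when methionine gives up its methyl group, and raised blood homocysteine and a lipid-rich diet are both used to speed atherosclerosis in mice that lack apolipoprotein E. Such mice clear lipoprotein remnants poorly. The aortic wall and its adventitia hold resident macrophages, recruited monocytes that can load lipid and turn into foam cells, B cells of the follicular and B-1 kinds, T cells and neutrophils. Interferons made by such cells switch on a shared set of antiviral genes through a response element near the start of the gene, the interferon-stimulated response element.

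Apoe (ENSMUSG00000002985, chr7:19696109-19699188, minus strand, GRCm38), the gene disrupted in the labelled strain, was read first. In all called barcodes it stood at 374 CPM (UMIs scaled to 1000000 per class and library) in the library labelled HHcy, at 19.3 CPM in WD and at 16.3 CPM in the control library. The library labelled HHcy thus goes against its label. The labels give the same strain for all libraries and name neither the Apoe allele nor the part of the gene it lacks. A 3' tag can lie outside that part in any of them, and the cause of the difference between libraries was not tested. In the myeloid class Apoe was at 764 CPM against 24 CPM in WD. In the B class it was at 267 against 15.7 CPM, in the neutrophil class at 50.8 against 13.8 CPM, and in the T class at 34.1 against 7.37 CPM. The neutrophil and T levels of the library labelled HHcy rest on 109 and 42 Apoe UMIs, with at most 12 and 7 in a barcode. The part of RNA from other cells in these low levels was not tested. The control T class held 0 Apoe UMIs, which allows up to 4.35 CPM, the level that 3 UMIs would give. Apoe was uneven between barcodes: 549 of 8155 (6.73%) held 10 or more UMIs in the library labelled HHcy, against 3 of 6710 in WD and 1 of 6038 in the control library. Without these Apoe-high barcodes the log2 ratio of Apoe was 1.46 in the myeloid class, against 4.99 with them, and 1.59 in the B class, against 4.09. The barcodes were picked by Apoe itself, so a fall was set by their removal. With gates that exclude markers of the other classes, described below, the ratio was 5.14 in the myeloid class. In the B class it was then 2.85, at 53.6 against 7.36 CPM.

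**Figure D1:**
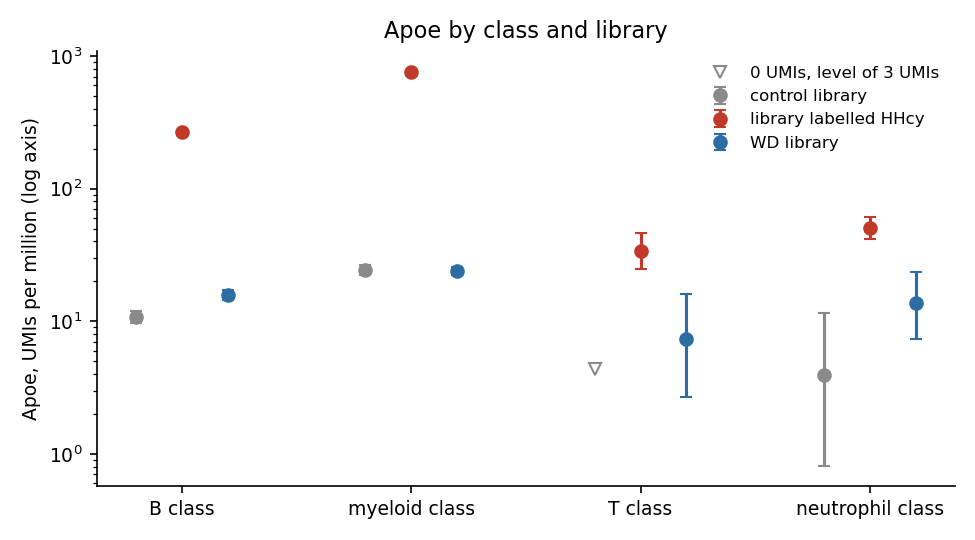
Apoe level in each class (CPM, log axis) in the control library, the library labelled HHcy and the WD library. Points are class sums, bars are exact 95% Poisson intervals for counting error, and the open triangle marks the level that 3 UMIs would give where 0 were seen; the points of the library labelled HHcy, from 34.1 to 764 CPM, lie above those of both other libraries in every class.

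The gates also admitted barcodes with markers of a second class. In the B class, 32.2% of barcodes in the library labelled HHcy and 47.4% in WD held Csf1r. In the myeloid class, 14.4% and 6.89% held 10 or more S100a8 UMIs. Each result was therefore also read with gates that exclude the markers of the other classes, called the strict gates here: no Csf1r or Cd3 and under 10 S100a8 UMIs for B barcodes, no Ms4a1 or Cd3 and under 10 S100a8 UMIs for myeloid ones, no Ms4a1 and under 10 S100a8 UMIs for T ones, and no Cd79a or Cd3 for neutrophils. Near the thresholds, 8 T barcodes of the library labelled HHcy and 13 of the WD library had a Cd3 sum of exactly 2, and 32 and 27 barcodes with a sum of 1 fell outside. In the same order, 10 and 1 neutrophil barcodes held 10 to 14 S100a8 UMIs, and 16 and 8 barcodes with 5 to 9 fell outside. The 2 libraries shared 23 barcode sequences. Passing barcodes held a median of 8086 UMIs in the library labelled HHcy, 9935 in WD and 8293 in the control library. With 1 library per group there is no test and no replicate check, and all intervals are 95% and cover counting error only, not the spread between mice or preparations.

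The B class was the larger class in the library labelled HHcy and the myeloid class in WD. B barcodes made up 64.6% (Clopper-Pearson interval 63.5 to 65.6%) of passing barcodes in the library labelled HHcy, 33.1% (31.9 to 34.2%) in WD and 45.9% in the control library. On the log2 scale the share was higher in the library labelled HHcy by 0.97 (0.91 to 1.02), and by 1.33 with the strict gates. The myeloid class stood at 17.2% (16.4 to 18.1%) in the library labelled HHcy, 45.2% (44.0 to 46.4%) in WD and 33.5% in the control library, a log2 ratio of -1.39 (-1.47 to -1.31), and -1.50 without the Apoe-high barcodes. The control share lay between the 2 others for both classes. Because shares of one library sum to a whole, they cannot show which class differed in number. B barcodes per T barcode were 34.4 in the library labelled HHcy, 17.9 in WD and 25.7 in the control library.

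T barcodes took nearly equal shares, 1.88% (1.59 to 2.2%) and 1.85% (1.54 to 2.2%). Their log2 ratio of 0.02 had an interval from -0.32 to 0.36, so a difference inside that range was not detectable at this depth. Neutrophil barcodes took 3.57% (3.18 to 3.99%) in the library labelled HHcy, 2.76% (2.38 to 3.18%) in WD and 2.07% in the control library, a log2 ratio of 0.37 (0.11 to 0.63). With the strict gates that ratio was 0.17, and its interval then included 0. Barcodes outside the 4 classes were 13.2% and 17.3%.

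**Figure D2:**
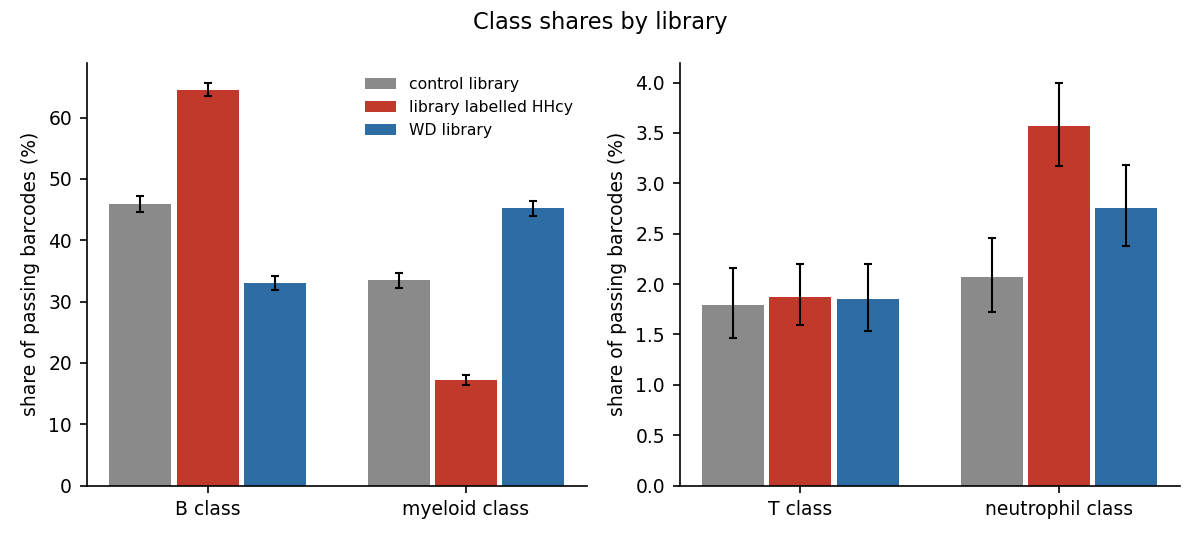
Share of passing barcodes (percent) in each class for the control library, the library labelled HHcy and the WD library, with exact 95% binomial intervals for counting error. The B and myeloid shares differ in opposite directions between the libraries labelled HHcy and WD (64.6% against 33.1%, and 17.2% against 45.2%), and the T shares overlap.

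Expression was compared within each class on UMIs summed per library. A gene was read when its mean level was at least 10 CPM with at least 30 UMIs in the 2 libraries together, and it was called when its ratio was past 2-fold with an interval that excluded 1. In the B class 27 of 7675 genes (0.352%) were called higher in the library labelled HHcy and 98 (1.28%) lower, 125 in all (1.63%). Under the strict gates 18 of 7152 (0.252%) and 55 (0.769%) were called. Of the 27 genes, 10 were called under both sets of gates, and of the 98 genes 11 were, while 26 and 93 kept their direction. The control level was nearer the WD library for 25 of the 27 higher genes and nearer the library labelled HHcy for 90 of the 98 lower ones.

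Genes of follicular B cells, the recirculating kind that fills lymphoid follicles, were higher in B barcodes of the library labelled HHcy. Fcer2a, which encodes the low-affinity IgE receptor CD23, stood at 143 CPM there, 62.9 CPM in WD and 73.6 CPM in the control library, a log2 ratio of 1.19 (1.12 to 1.25), and 0.99 with the strict gates. Cr2, the complement receptor CD21, was at 95.2, 42.9 and 56.4 CPM in the same order, a log2 ratio of 1.15. Ighd, the heavy chain of IgD on naive B cells, was at 426, 194 and 210 CPM (1.14). Satb1, a chromatin organiser, was at 366, 166 and 197 CPM (1.15). For these 4 genes the WD and control levels lay closer to each other than to the library labelled HHcy, which stood above both. In the list of follicular and naive B genes, 13 of 15 were higher and 4 were called, with a median of 0.46 against -0.02 over all genes read in the class. Under the strict gates the median was 0.11, 10 of the 15 were higher and 1 was called. Rasgrp3, Hs3st1 and Trim7, the other genes the naming rule took without a call past 2-fold, had log2 ratios of 0.93, 0.93 and 0.94.

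B-1 genes lay the other way. B-1 cells are innate-like B cells that make natural antibody. Of 18 B-1 genes read, 15 were lower in the library labelled HHcy, and the median was -0.47 and -0.69 with the strict gates. Zbtb32, a transcription factor of B-1 and memory B cells, was at 16.6 CPM in that library, 27.5 CPM in WD and 42.5 CPM in the control library. Bhlhe41, needed for B-1a cells, was at 24.7, 31.9 and 52.0 CPM. S100a6 was at 861, 1281 and 1789 CPM. These 3 genes were lowest in the library labelled HHcy and highest in the control library. The 3 genes of this list that were higher were Apoe, Rasgrp3 and Ptpn22 (0.38). Split by marker, 55.8% of B barcodes held Fcer2a and neither Zbtb32 nor Bhlhe41 in the library labelled HHcy, 32.3% in WD and 26.7% in the control library. Barcodes without Fcer2a but with Zbtb32 or Bhlhe41 were 13.2%, 28.8% and 36.2%. The median B barcode held 8190 UMIs in the library labelled HHcy and 11160.5 in WD. With each barcode thinned to 2000 UMIs the Fcer2a shares were 31.3% and 16.7%, and those of Zbtb32 or Bhlhe41 were 6.42% and 11.1%. When both libraries were weighted to the mean of their sub-gate mixes, the B-1 median was 0.11 and the follicular median 0.33. The sub-gates rest on Fcer2a, Zbtb32 and Bhlhe41, which are themselves follicular or B-1 genes, so part of this move was set by the gates.

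All 12 immunoglobulin constant and joining genes read were higher in B barcodes of the library labelled HHcy, 7 of them past 2-fold, with a median of 1.26. Igkc, the kappa light chain, was at 12994 CPM there, 4973 CPM in WD and 5624 CPM in the control library. Jchain, which joins IgM and IgA into polymers, was at 593, 200 and 180 CPM. Ighg2c, a heavy chain of switched IgG, was at 887, 115 and 312 CPM. With the strict gates the log2 ratio of Ighg2c was 0.51, against 2.95 with the gates of the rule. That of Igkc was 0.76, and 0.22 with barcodes thinned, against 1.39, so neither stayed past 2-fold. Jchain kept its call (1.56, strict 1.14), as did Ighg2b (2.36, strict 3.6). Much of the UMI total lay in few barcodes: 10 barcodes held 77.2% of the Ighg2c UMIs, 90.3% of the Ighg2b UMIs and 38.6% of the Jchain UMIs of the library labelled HHcy. At least 1 UMI of these genes was seen in 38.4%, 24.4% and 17.3% of its B barcodes. All 8 plasma cell markers were present in both libraries, with a sum of 1273 CPM in the B class of the library labelled HHcy and 576 CPM in WD. Jchain is itself 1 of these markers and gave 593 and 200 CPM of those sums. The part of plasma cells in the result was not tested. Under the strict gates 8 of the 12 genes were higher and the median was 0.84, and with barcodes thinned it was 0.53. Genes of class II antigen presentation were higher by smaller amounts, 10 of 11 with a median of 0.21, and 0.34 with all 11 higher under the strict gates. H2-Oa, an inhibitor of peptide loading, was at 179 CPM against 98.5 CPM in WD, and Cd74, the invariant chain, at 10569 against 9323 CPM.

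Interferon-stimulated genes were lower in B barcodes of the library labelled HHcy than in WD. Of 23 read, 22 were lower, 7 past 2-fold and 15 past 1.5-fold, where 6.18% of all genes read in the class were lower by that much. The median was -0.73, and -0.56 with the strict gates, under which 3 were called. Without the Apoe-high barcodes it was -0.78. Rsad2, which encodes the antiviral enzyme viperin, stood at 77.3 CPM in the library labelled HHcy, 184 CPM in WD and 57.1 CPM in the control library, a log2 ratio of -1.25 (-1.31 to -1.2), and -1.08 with the strict gates. Isg15, a ubiquitin-like modifier, was at 58.1, 126 and 42.1 CPM (-1.12, strict -0.83). The strict gates left far lower levels, with Rsad2 at 10.3 against 21.7 CPM and Isg15 at 13.4 against 23.8 CPM. Most of the level of both genes thus lay in B barcodes with markers of another class. Ifit3, an RNA-response adaptor, was at 19.7, 41.6 and 11.3 CPM (-1.08, strict -0.80). Each of the 3 was highest in WD, and the other 2 libraries were closer to each other. Ifi44, Ifit2, Phf11d and Oasl2 were the other genes past 2-fold, with ratios from -1.52 to -1.03, and Isg20 was the gene that was higher (0.25). The macrophage markers, which B cells should lack, all had UMIs in the B class and summed to 4789 CPM in the library labelled HHcy and 7662 CPM in WD. The strict gates left sums of 333 and 466 CPM, with 9 of the 10 present and Csf1r at 0 by the gate.

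The bases before the start of these 3 genes are shown because they are the genes called lower in B barcodes that hold the core letters of the response element, and they were chosen after that was seen. The letters GAAA, any 2 bases and GAAA again, a core of that element, were searched on both strands, overlaps allowed, from 250 bases before to 50 after each start in RefSeq windows (GRCm38.p6). They occurred in 3.99% of 27025 genes with a window and in 4.26% of 6181 genes read in the B class. Of the 19 genes of the interferon list that matched a window, 10 held them (52.6%), among them 3 of the 7 called lower in B barcodes. Ifi44, Ifit2, Phf11d and Oasl2, the other genes called lower, had 0 matches in their windows. Only the 250 bases before the start are printed, 5′ to 3′ on the strand of the gene, with the matches in capitals (chr4:156200819-156201068 minus, chr19:34583279-34583528 plus and chr12:26456453-26456702 minus).
Isg15: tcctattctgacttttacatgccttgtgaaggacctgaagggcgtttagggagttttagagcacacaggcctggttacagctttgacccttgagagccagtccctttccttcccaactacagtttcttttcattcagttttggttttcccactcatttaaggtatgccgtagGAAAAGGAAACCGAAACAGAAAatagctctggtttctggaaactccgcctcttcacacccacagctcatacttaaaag
Ifit3: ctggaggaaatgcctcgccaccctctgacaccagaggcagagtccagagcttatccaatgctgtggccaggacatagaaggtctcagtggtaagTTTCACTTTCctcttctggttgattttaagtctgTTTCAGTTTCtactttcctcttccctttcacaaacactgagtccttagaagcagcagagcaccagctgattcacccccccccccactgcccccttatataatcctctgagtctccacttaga
Rsad2: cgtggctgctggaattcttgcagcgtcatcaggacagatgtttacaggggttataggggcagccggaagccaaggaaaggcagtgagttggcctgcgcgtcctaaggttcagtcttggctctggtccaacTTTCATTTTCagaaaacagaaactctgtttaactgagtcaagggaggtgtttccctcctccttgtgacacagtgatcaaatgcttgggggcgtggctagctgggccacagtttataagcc
Isg15 has 3 overlapping matches, the first beginning 78 bases before the start, Ifit3 has 2 as the reverse complement at 156 and 122 bases, and Rsad2 has 1 as the reverse complement at 120 bases. A match describes letters only and says nothing of binding.

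Other genes lower in B barcodes of the library labelled HHcy included several known from macrophages. Ccl8, a chemokine, was at 100.0 CPM there, 349 CPM in WD and 37.1 CPM in the control library, a log2 ratio of -1.80 and -1.15 with the strict gates. Fabp5, a fatty acid-binding protein, was at 64.9, 207 and 78.6 CPM (-1.68, strict -1.93). Gdf15, a stress-induced cytokine, was at 43.9, 138 and 64.9 CPM (-1.65, strict -1.75). The same rule named Ms4a7, Ccl12, Cxcl16, Slamf9, Lpl, Rgs1 and Cx3cr1, with ratios from -1.78 to -1.33. Under the strict gates Cx3cr1, the fractalkine receptor of monocytes, was at 2.58 against 4.13 CPM. Fabp5, Ccl8, Ccl12 and Slamf9 were called under both sets of gates, and Ms4a7, Cxcl16, Rgs1 and Cx3cr1 only under the gates of the rule. The strict gates left Fabp5 at 12.7 against 48.5 CPM and Ccl8 at 11.6 against 25.6 CPM. They left Ccl12 at 7.96 against 17.6 CPM and Slamf9 at 11.7 against 27.8 CPM. Most UMIs of Fabp5, Ccl8, Ccl12 and Slamf9 thus lay in B barcodes with markers of another class. Gdf15 and Lpl (strict -1.61) fell below the level read under the strict gates, at 4.23 against 14.2 CPM and 4.61 against 14.1 CPM. Atf3, an immediate early stress factor, was at 538 CPM in the library labelled HHcy, 1116 CPM in WD and 904 CPM in the control library (-1.05, strict -1.42), and 21 of 22 immediate early genes were lower, with a median of -0.37. Ccl3, a chemokine that activated B cells make, was at 366 against 738 CPM (-1.01). With the strict gates it was at 36.7 against 71.9 CPM (-0.97) and was not called. Sox4, a factor of developing B cells, was at 7.43 against 14.9 CPM (strict -1.51). Of 7 immature and developing B genes read, 5 were lower and 2 higher. Their median was -0.03, against -0.02 over all genes, and -0.47 with the strict gates.

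**Figure D3:**
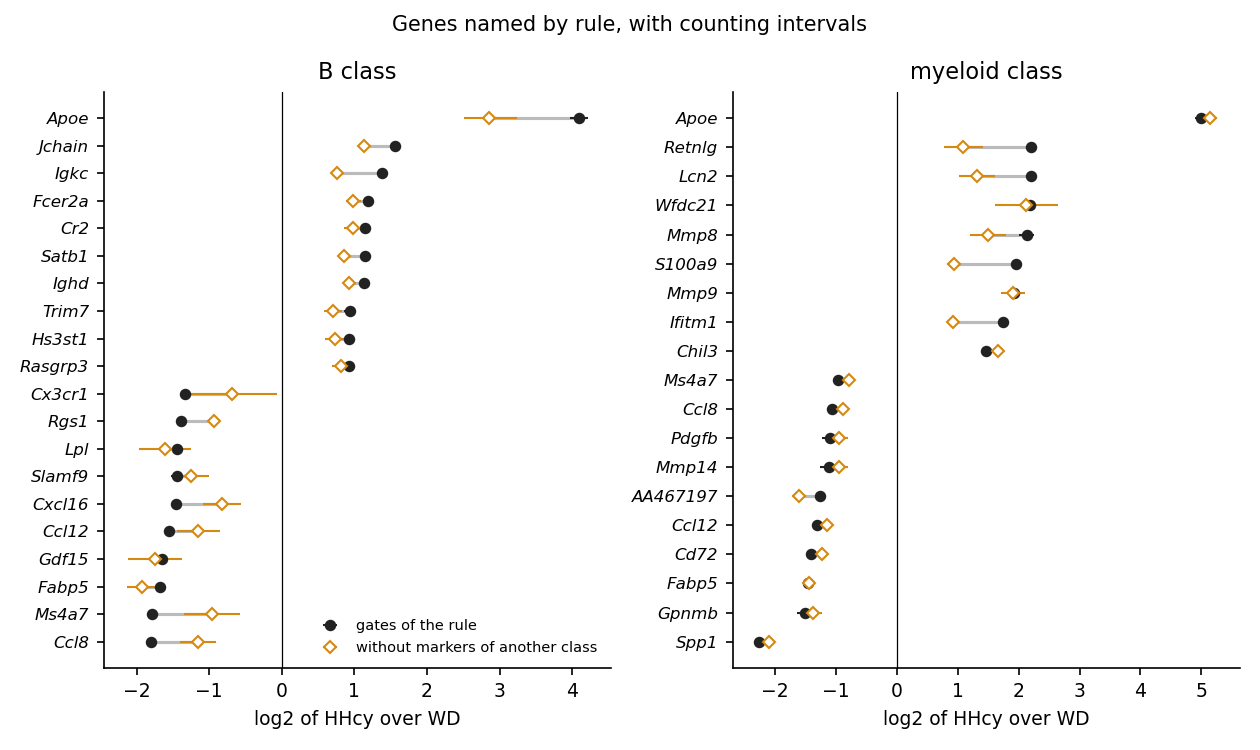
Log2 ratio of the library labelled HHcy over the WD library for genes named by rule in the B class (left) and the myeloid class (right), with 95% counting intervals. Filled points use the gates of the rule and open diamonds the strict gates; in the B class Ms4a7 lies at -1.78 and -0.97, and in the myeloid class Spp1 lies at -2.26 and -2.11.

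In the myeloid class 85 of 7740 genes (1.1%) were called higher in the library labelled HHcy and 36 (0.465%) lower, 121 in all (1.56%). Of these, 33 and 30 were also called with the strict gates, which called 0.637% higher and 0.52% lower. The control level was nearer the WD library for 80 of the 85 higher genes. Genes of lipid-laden foam cells were lower. Of 20 read, 18 were lower, 3 past 2-fold and 8 past 1.5-fold, where 1.67% of all genes read in the class were lower by that much. The median was -0.49 against -0.01 over all genes, -0.44 with the strict gates and -0.52 without the Apoe-high barcodes. Spp1, the secreted phosphoprotein osteopontin, stood at 166 CPM in the library labelled HHcy, 797 CPM in WD and 846 CPM in the control library, a log2 ratio of -2.26 (-2.32 to -2.2). Gpnmb, a glycoprotein of foam cells, was at 33.1, 94.6 and 62.7 CPM (-1.51), with a ratio of -0.76 for the same mix of sub-gates and -0.89 with barcodes thinned. Fabp5 was at 230, 632 and 270 CPM (-1.46). The WD level stood well above the control level for Fabp5, while for Spp1 those 2 libraries were close. Trem2, a lipid-sensing receptor, was at 99.3 against 185 CPM in WD, and Lgals3, galectin 3, at 1075 against 1898 CPM, both past 1.5-fold. Cd36, a scavenger receptor for oxidised lipoprotein, was at 183 against 149 CPM. All 18 cathepsin and lysosome genes read were lower with the gates of the rule (median -0.26), while 3 of them were higher with the strict gates (median -0.17). Myeloid barcodes with 2 or more Gpnmb UMIs and under 2 of Lyve1 and Folr2 were 2.56% in the library labelled HHcy, 5.21% in WD and 3.07% in the control library.

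Macrophage chemokines differed in both directions. Of 18 read, 12 were lower, 3 of them past 2-fold, and 6 were higher, 3 of them past 1.5-fold. The median was -0.20, and -0.09 with the same mix of sub-gates. Ccl12 was at 174 CPM in the library labelled HHcy, 432 CPM in WD and 192 CPM in the control library (-1.31, strict -1.16). Ccl8 was at 224, 468 and 77.8 CPM (-1.06, strict -0.88). Ccl2 was at 525, 974 and 598 CPM (-0.89) and Ccl7 at 464, 882 and 506 CPM (-0.93), both short of 2-fold. Each of the 4 was highest in WD. On the higher side, Ccl24 had a ratio of 0.93, Cxcl9 of 0.66 and Cxcl13 of 0.64. Ccl22, the third gene past 2-fold, had 61.4% of its WD UMIs in 10 barcodes. Cd72, a C-type lectin-like receptor, was at 91.7, 244 and 152 CPM (-1.41). Mmp14, a membrane matrix metalloproteinase, and Pdgfb, a growth factor for smooth muscle cells and pericytes, had ratios of -1.12 and -1.09. Ms4a7 was at 186 against 366 CPM (-0.98), and AA467197 at 83.5 against 201 CPM (-1.27). Complement component C1qa was at 2057 against 2767 CPM in WD, and 9 of 13 complement genes read were lower, with a median of -0.37.

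Classical monocyte genes were higher in the library labelled HHcy. Of 12 read, 10 were higher, 3 past 2-fold and 7 past 1.5-fold, where 2.96% of all genes read were higher by that much. Their median was 0.70, 0.67 with the strict gates and 0.83 without the Apoe-high barcodes. It was 0.56 with barcodes thinned and 0.42 with the same mix of sub-gates. Chil3, a chitinase-like protein, stood at 488 CPM in the library labelled HHcy, 178 CPM in WD and 160 CPM in the control library (1.46, strict 1.65). Vcan, the proteoglycan versican, was at 47.3, 16.2 and 15.0 CPM (1.54, strict 1.75). For both genes the WD and control libraries nearly coincided. Myeloid barcodes with 2 or more Ly6c2 UMIs, outside sub-gates for Lyve1 or Folr2, Gpnmb, and Treml4 or Ace, were 13.4% (11.7 to 15.3%), 7.22% (6.32 to 8.20%) and 7.82%. Thinned to 2000 UMIs, they were 9.37% and 5.63%. Of 12 non-classical monocyte genes 10 were higher, with a median of 0.18, and Pglyrp1 was past 2-fold (369 against 179 CPM, strict ratio 0.60). Fscn1, a gene of mature dendritic cells, was at 5.65 against 26.6 CPM (-2.23). The list of conventional dendritic genes it belongs to had no common direction. Of 11 read, 5 were higher and 6 lower, with a median of -0.03, and 0.15 with the strict gates.

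Genes of resident-like macrophages were higher as well, 15 of 19 with a median of 0.45, and 0.58 with the strict gates. None was past 2-fold under the gates of the rule, and 7 were past 1.5-fold. Cd209f, a lectin of resident macrophages, was at 82.0 CPM in the library labelled HHcy, 41.0 CPM in WD and 21.4 CPM in the control library. Ccl24, an eosinophil chemokine, was at 102, 53.8 and 56.5 CPM, and Lyve1, a hyaluronan receptor, at 205, 128 and 134 CPM. Without the barcodes of 10 or more Apoe UMIs the median of this list was 0.12. Retnla, a gene of alternative activation, was at 1105, 541 and 1076 CPM (1.03, strict 1.23), so here the WD library was the one that stood apart.

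Neutrophil genes took most of the other places among the genes named as higher in the myeloid class. Retnlg was at 1144 CPM in the library labelled HHcy, 248 CPM in WD and 132 CPM in the control library (2.21, strict 1.09). Lcn2, an iron-sequestering granule protein, was at 474, 103 and 74.7 CPM (2.2, strict 1.32). S100a9, a subunit of calprotectin, was at 8576, 2216 and 1769 CPM (1.95, strict 0.94). Wfdc21, Mmp8, Mmp9 and Ifitm1 had ratios from 1.74 to 2.18. The 10 neutrophil markers were all present in both libraries and summed to 17452 and 4686 CPM in the myeloid class, and to 435 and 263 CPM with the strict gates. Among genes of cholesterol traffic, Srebf2, a factor that drives sterol synthesis, was at 60.9 CPM against 43.5 CPM in WD. Abcg1, which exports cholesterol, was at 113 against 191 CPM, and Nr1h3, the liver X receptor that drives it, at 25.2 against 42.0 CPM. Of 9 genes of cholesterol synthesis and uptake read, 8 were higher, with a median of 0.34, and of 14 liver X receptor targets 8 were lower, with a median of -0.10. Apoe is itself among these targets, counted as higher, and was the only 1 past 2-fold (4.99).

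The T class was small, with 153 barcodes in the library labelled HHcy and 124 in WD. Of 6999 genes read, 87 (1.24%) were called higher and 219 (3.13%) lower, 306 in all (4.37%). Of these, 59 and 172 were also called with the strict gates, which called 1.26% higher and 3.02% lower. The TMM scaling factors of the T sums had a log2 ratio of -0.14, so each T ratio given here would be higher by that amount on that scale. With those factors 147 genes were called higher and 164 lower, and with median-of-ratios size factors 147 and 165, so the larger number of lower calls depended on the scaling. Naive T genes leaned higher, 10 of 12 with 2 past 2-fold and a median of 0.30 against -0.09 over all genes. Ccr7, the lymph node homing receptor, was at 228 CPM in the library labelled HHcy, 84.7 CPM in WD and 52.2 CPM in the control library (1.42, 1.04 to 1.83). Satb1 was at 421, 168 and 230 CPM (1.32). Tcf7 and Lef1, factors of naive T cells, had ratios of 0.74 and 0.75. Cd8a was at 210, 101 and 286 CPM (1.06) and Cd8b1 at 263, 130 and 339 CPM (1.01), with the WD library lowest. T barcodes with Cd8a or Cd8b1 and neither Cd4 nor Trdc were 36.6% (29.0 to 44.8%), 21.0% (14.2 to 29.2%) and 43.5%. Those with Cd4 and neither CD8 chain nor Trdc were 24.2%, 24.2% and 20.4%. In the library labelled HHcy, 10 barcodes held 61.8% of the Ccr7 and 54.4% of the Cd8a UMIs. Kbtbd11, Dusp10, Gtf2a2 and Actn1 were named past 1.5-fold, with ratios from 0.91 to 0.99.

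Effector genes of T cells leaned lower in the library labelled HHcy. Of 15 cytotoxic effector genes read, 14 were lower, 3 past 2-fold, with a median of -0.68. Gzma, granzyme A, was at 363 CPM there, 1435 CPM in WD and 665 CPM in the control library (-1.98). Gzmb, granzyme B, was at 122, 393 and 316 CPM (-1.69), and Ifng, interferon gamma, at 47.9, 157 and 84.0 CPM (-1.71). In WD, 10 barcodes held 69.4% of the Gzma, 57.2% of the Gzmb and 69.5% of the Ifng UMIs. Natural killer cell markers, 7 of 8 present in both libraries with Klra8 at 0, summed to 585 CPM in the library labelled HHcy and 1799 CPM in WD. Gzma is itself 1 of these markers and gave 363 and 1435 CPM of those sums. The part of natural killer cells in these values was not tested. All 10 gamma-delta and IL-17 genes read were lower, 5 of them past 2-fold, with a median of -1.0. With barcodes thinned that median was -0.38, and with each barcode weighted equally -0.42. Il17a was at 106, 206 and 110 CPM (-0.96), and Tcrg-C1, a gamma chain constant region, at 56.1, 117 and 78.3 CPM with 85.3% of its WD UMIs in 10 barcodes. Trdc-bearing barcodes took like shares, 15.0% (9.77 to 21.7%) and 15.3% (9.48 to 22.9%). Of 12 regulatory T genes 10 were lower, with a median of -0.58. Areg and Itgae, the 2 past 2-fold, had all their WD UMIs in 10 or fewer barcodes. Ctla2a, a cysteine protease inhibitor, was at 218, 528 and 229 CPM (-1.27), and Fgl2 at 63.4, 156 and 158 CPM (-1.29). Hnrnpll and Lgals3bp were the other called genes named as lower (-1.17 and -1.03), and S100a13 and Nbeal2 were both past 1.5-fold (-0.97). Of 9 mast cell markers, 5 were present in T barcodes of the library labelled HHcy (Mcpt4, Tpsb2, Ms4a2 and Gata2 at 0), with a sum of 21.1 CPM. All 9 were present in WD, summing to 2859 CPM with 97.6% in 1 barcode, and their part in the T values was not tested. Fibroblast markers, all 10 present in both, summed to 1075 and 2289 CPM, with 84.6% and 71.7% in 2 barcodes. Neutrophil markers, all 10 present in both, summed to 5051 CPM in the library labelled HHcy and 3472 CPM in WD, with 90.9% and 63.7% in 1 barcode. The 10 T cell markers summed to 4733 and 4735 CPM. The part of fibroblast and neutrophil RNA in the T values was not tested.

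In the neutrophil class, with 291 and 185 barcodes, 206 of 5848 genes (3.52%) were called higher in the library labelled HHcy and 187 (3.2%) lower, 393 in all (6.72%). Of these, 57 and 70 were also called with the strict gates, which called 2.43% higher and 3.27% lower. With TMM factors 255 were called higher and 151 lower, and with median-of-ratios size factors 260 and 150. Several of the higher genes are known to respond to interferon. Gbp2, a guanylate-binding protein, stood at 186 CPM in the library labelled HHcy, 50.8 CPM in WD and 40.6 CPM in the control library (1.86, strict 1.55). Ifitm1, an interferon-induced membrane protein, was at 4610, 2125 and 981 CPM (1.12, strict 1.10). Ifit2 was at 67.1, 14.8 and 3.93 CPM (2.13, 1.39 to 3.09) and Bst2, tetherin, at 163, 69.8 and 31.4 CPM (1.22, strict 1.41). The WD level lay between the 2 others for these 4 genes. Of 22 interferon-stimulated genes read, 16 were higher, 3 past 2-fold and 6 past 1.5-fold, where 7.52% of all genes read were higher by that much. The median was 0.41, 0.44 with the strict gates and 0.13 with barcodes thinned to 2000 UMIs, and 59.0% of the Ifit2 UMIs of the library labelled HHcy lay in 10 barcodes. Rsad2, lower in B barcodes, was at 366 against 384 CPM here (-0.07, -0.25 to 0.11). The other rule-named genes on this side were Plac8 (922 against 346 CPM), Tpi1, Pnp and Steap4, with ratios from 1.09 to 1.41.

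**Figure D4:**
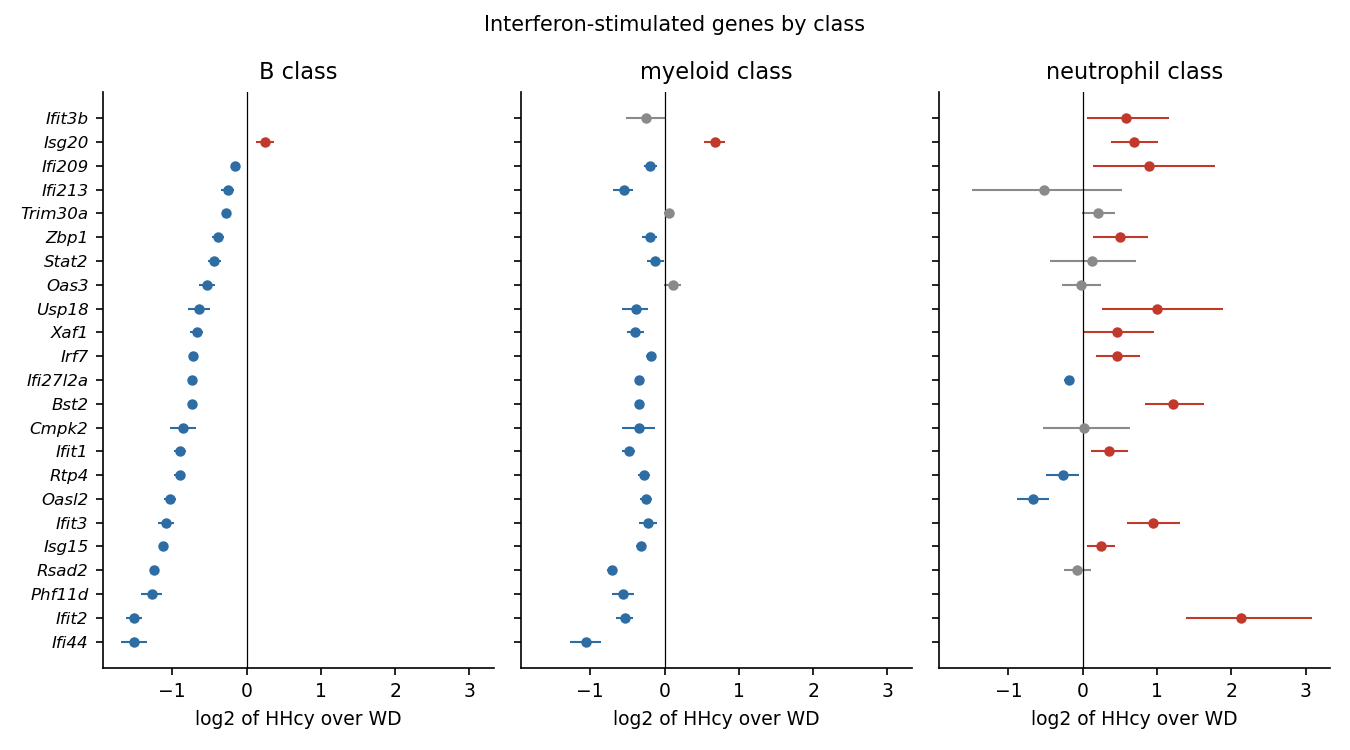
Log2 ratio of the library labelled HHcy over the WD library for the plotted interferon-stimulated genes read in the B, myeloid and neutrophil classes, with 95% counting intervals. Red marks intervals above 0, blue intervals below 0 and grey those that include 0; 21 of 22 plotted genes lie below 0 in the B class, 20 of 23 in the myeloid class and 6 of 21 in the neutrophil class.

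In the myeloid class 20 of 24 interferon-stimulated genes were lower, with a median of -0.29, and Ifi44 alone was past 2-fold (14.7 against 30.6 CPM). In the T class 11 of 17 were lower, with a median of -0.27, and -0.13 with TMM scaling. The difference between classes was not tested.

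Immediate early genes were lower in neutrophil barcodes of the library labelled HHcy, 21 of 22 with 4 past 2-fold and 13 past 1.5-fold, where 8.53% of all genes read were lower by that much. Their median was -0.68, and -0.47 with the strict gates, under which none was past 2-fold. Fosb was at 220 CPM there, 467 CPM in WD and 503 CPM in the control library (-1.09, strict -0.75), and Egr1 at 480, 891 and 1032 CPM (-0.89). Thbs1, the matrix protein thrombospondin, was at 437, 1315 and 939 CPM (-1.59, strict -1.37). Vegfa, the vascular endothelial growth factor, was at 52.6, 151 and 91.7 CPM (-1.52, strict -1.47). Cxcr4, the receptor that holds neutrophils in marrow and tissue, was at 256, 527 and 398 CPM (-1.04, strict -1.19). The WD level was highest for Thbs1, Vegfa and Cxcr4, and the control level lay between. Olr1, an oxidised lipoprotein receptor, Osgin1 and Arl4c had ratios from -1.52 to -1.17. C1qa, a macrophage gene, was at 73.2 against 163 CPM here (-1.16, strict -0.79). Of 18 inflammatory genes 15 were lower, 3 past 2-fold, with a median of -0.63, but -0.23 with each barcode weighted equally. Cxcl1, a neutrophil chemokine, was at 61.0 against 220 CPM, with 93.8% of the WD UMIs in 10 barcodes.

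Early granule genes of neutrophil precursors depended on few barcodes. Mpo, myeloperoxidase, was at 219 CPM in the library labelled HHcy and 2.12 CPM in WD, and all its UMIs in the former lay in 10 or fewer barcodes. Prtn3, proteinase 3, was at 347 against 18 CPM with 98.9% in 10 barcodes, and with the strict gates it was lower by a log2 ratio of -1.38. Lipg, an endothelial-type lipase, was at 88.1 against 4.23 CPM and kept a ratio of 4.13 with the strict gates. Barcodes with 2 or more UMIs of Camp and Ltf, granule genes of immature neutrophils, were 25.8% (20.9 to 31.2%) in the library labelled HHcy, 21.1% (15.4 to 27.7%) in WD and 44.8% in the control library. All 76 ribosomal protein genes read were higher in neutrophil barcodes of the library labelled HHcy (median 0.56), and 66 of them were under the strict gates (median 0.24). In the T class 73 of 76 were higher (median 0.35) in the B class 72 of 76 (median 0.19, strict 0.07) and in the myeloid class 52 of 76 (median 0.02, and -0.01 with TMM scaling). Median depth was 5716 UMIs against 4212 in WD for neutrophils, and 6151 against 5149.5 for T barcodes, and its part in these values was not tested. B cell markers, all 10 present, summed to 938 and 626 CPM in the neutrophil class, and 23.7% and 9.73% of its barcodes held Cd79a.

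**Figure D5:**
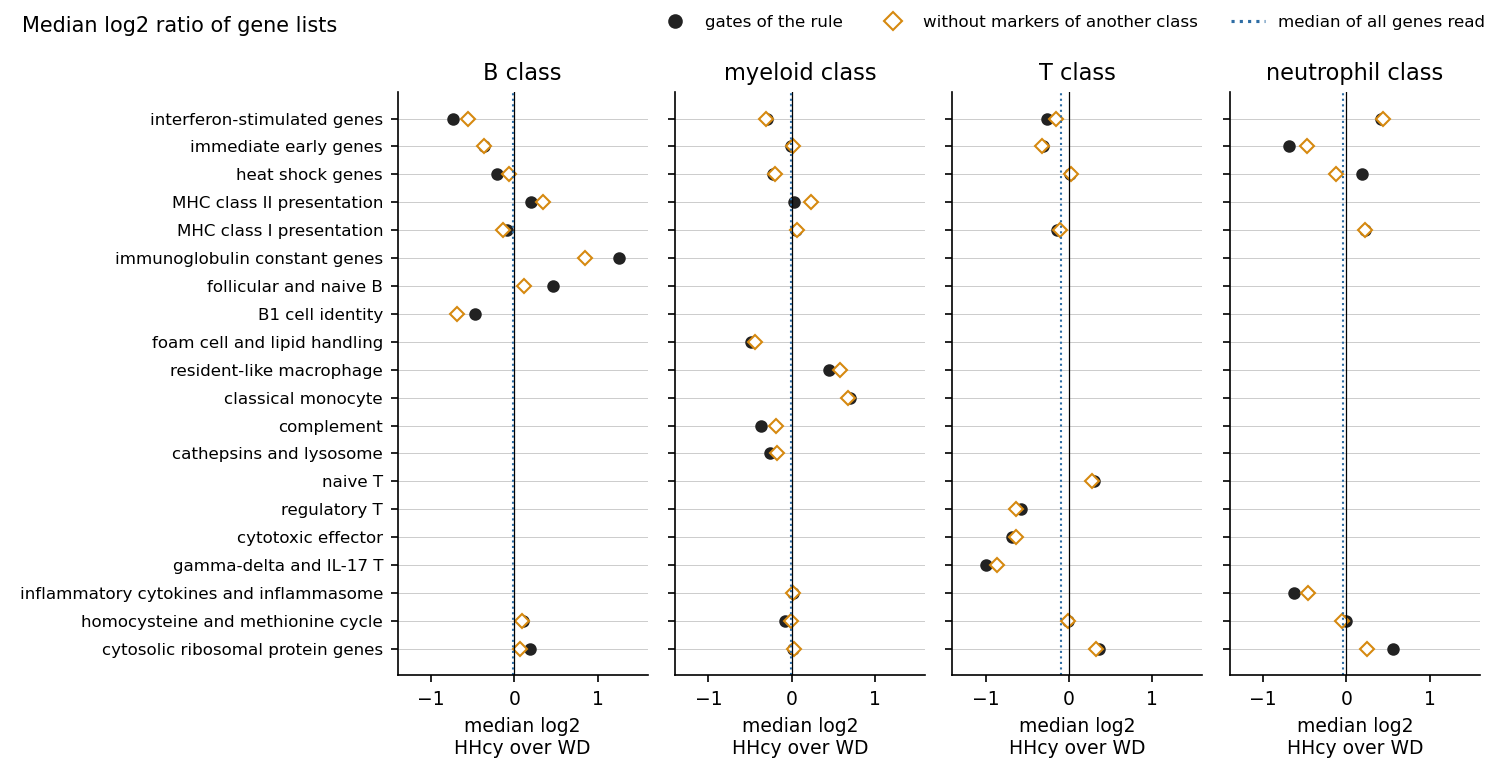
Median log2 ratio of the library labelled HHcy over the WD library for gene lists (rows) in each class (panels). Filled points use the gates of the rule, open diamonds the strict gates, and the dotted line is the median of all genes read; the interferon-stimulated list lies at -0.73 in the B class and 0.41 in the neutrophil class, and the homocysteine and methionine list lies between -0.09 and 0.11.

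Genes of the homocysteine and methionine cycle, which make and clear homocysteine, were split in direction in each class. Of 11 read in the B class, 6 were higher and 5 lower, with a median of 0.11, which was -0.07 with barcodes thinned and -0.03 with each barcode weighted equally. The medians were -0.09 over 10 genes in the myeloid class, -0.02 over 11 in the T class (0.12 with TMM scaling) and -0.01 over 7 in the neutrophil class (-0.42 with barcodes thinned). Mat2a, which makes S-adenosylmethionine, was at 34.0 against 71.9 CPM in neutrophils and was called there (-1.08), while in B barcodes it was at 144 against 165 CPM. The transsulfuration enzymes Cbs and Cth and the betaine-dependent enzyme Bhmt were below the level read in the B and myeloid classes.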

How the data were processed

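The members and gene lists were chosen with earlier results of these data known. The authors deposited raw UMI counts per gene and barcode, 32285 genes, from Chromium 3' version 3 libraries (per the labels' protocols); Cell Ranger is version 4.0.0 per the file headers and 2.2.0, with build mm10, per the submitters' processing notes. The libraries held 66789257 (control), 105180370 (HHcy) and 93164076 (WD) UMIs. Counts were summed per class and library and divided by the class total (CPM). No model was fitted: ratios of sums, with 0.5 UMIs added, carry exact conditional binomial intervals, shares Clopper-Pearson intervals, and levels Poisson intervals. No doublet caller was run. Named genes are, among those with a mean of at least 50 CPM, the 10 (B, myeloid) or 6 (T, neutrophil) highest and lowest ratios past 2-fold (1.5-fold where fewer), without immunoglobulin and T cell receptor variable segments, gate genes, genes under 5% of another class's level, or genes with over 50% of UMIs in 10 barcodes, plus called members of the lists (up to 4 for each list and class) and Apoe; other list members named were chosen after their values were seen. Mx1, Sepp1 and Clec7a of the lists matched no symbol and were not used here, and a few other genes are not reported here by name. The alternatives were a limit of 20% mitochondrial UMIs, at least 1000 genes, strict gates, thinning, removal of Apoe-high barcodes, TMM factors (edgeR 4.0.16) or size factors (DESeq2 1.42.0) used only as scalings, equal barcode weights, equal sub-gate mix and no filter on low counts. Ratios and intervals were tested on simulated counts. Python 3.11.15 and R 4.3.3 were used.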

Additional observations from a re-analysis of the deposited data

How the results depend on the processing

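With the strict gates, the log2 ratio of shares was 1.33 for the B class, -1.61 for the myeloid class and 1.33 for B barcodes per T barcode, and 73 B genes and 251 neutrophil genes were past 2-fold, against 125 and 393 with the gates of the rule. With barcodes thinned to 2000 UMIs, the B share was 1.06, the myeloid share -1.19, and 144 T genes (of 306) and 116 neutrophil genes were past 2-fold. Counted over barcodes in exactly 1 class, the B share was 0.90. At up to 20% mitochondrial UMIs the myeloid share was -1.30, and without barcodes of 10 or more Apoe UMIs it was -1.50, with 212 B genes past 2-fold. With at least 1000 genes the neutrophil share was 0.64. With no filter on low counts, 1068 B, 952 myeloid, 688 T and 788 neutrophil genes were past 2-fold. Among the genes named by rule or list, those that turned direction were Areg (0.83) and Tcrg-C1 (0.10) in the T class and Pycard (-0.21), Mpo (-1.19) and Ctsg (-1.19) in neutrophils when thinned, Klf4 (0.012), Prtn3 (-1.38) and Mpo (-3.21) in neutrophils with the strict gates, and Klf4 (0.13) and Anxa4 (0.051) there with equal barcode weights. Fewer UMIs remain after thinning, and the cause of the other moves was not tested. Of all called genes, the numbers that kept their direction with the strict gates were 26 of 27 higher and 93 of 98 lower in the B class, 81 of 85 and 36 of 36 in the myeloid class, 82 of 87 and 215 of 219 in the T class, and 182 of 206 and 176 of 187 in neutrophils. TMM and size factors left the 4 totals within 1.5 times, but T genes called higher went from 87 to 147 and those lower from 219 to 164 with TMM. With 1 library per group, no replicate could be left out, and no paired analysis was possible because each group holds 1 library. The T and neutrophil classes limit the depth, with 1230891 and 814702 T UMIs and 2146091 and 945671 neutrophil UMIs in the libraries labelled HHcy and WD.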
